A study of Mus musculus with 47 samples.

Results

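Fast fibre contractile genes were followed in mice fed a methionine-restricted (MR) or a control diet. The set comprised 10 genes named by symbol (Myh1, Myh2, Myh4, Mylpf, Tnnc2, Tnni2, Tnnt3, Atp2a1, Pvalb and Actn3) out of 26608 gene symbols in each tissue's count table, and all 10 were found and passed the filter on low counts in both gastrocnemius and brown adipose tissue (BAT). The animals were 12 male C57BL/6J mice, an inbred laboratory strain, all without any genetic change named in the labels. From 5 weeks of age they had free access to the MR or the control diet for 11 weeks, were kept at 23 C and were fasted for 5 h before the tissues were taken. No source used here gives the methionine content of the diets. Gastrocnemius, a calf muscle, gave 5 MR and 6 control libraries. BAT, inguinal white adipose tissue (IWAT) and liver gave 6 MR and 6 control libraries each, from the same animals. A library is named here by its diet (MR or CON) and animal number, and MR3113 has no gastrocnemius library analysed here.

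Skeletal muscle is a mixture of slow and fast fibres. Fast fibres in the mouse carry mainly 1 of 3 adult myosin heavy chains, the motors of the thick filament, encoded by Myh2 (type 2A), Myh1 (type 2X) and Myh4 (type 2B), and gastrocnemius is a muscle in which such fibres prevail. Mylpf encodes the fast regulatory light chain that binds these motors. Tnnc2, Tnni2 and Tnnt3 encode the fast isoforms of the calcium-binding, inhibitory and tropomyosin-binding subunits of troponin, the calcium switch of the thin filament. Atp2a1 encodes the calcium pump that refills the sarcoplasmic reticulum of fast fibres, Pvalb encodes parvalbumin, a soluble calcium buffer, and Actn3 encodes an alpha-actinin that anchors thin filaments at the Z-disc. Brown adipocytes are not contractile cells and do not assemble these proteins, so the levels in BAT were read as a check for muscle RNA.

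Each library counted 3′ tags made with the SOLiD SAGE kit, in which a transcript is represented by a short stretch next to a CATG site and not by reads along its length. Values are given as CPM, the tag count scaled to the library's total of tags, without further scaling. The tags are printed because gene levels in gastrocnemius library MR3101, relative to the other libraries, were correlated with tag position and tag GC content. They did not follow either in strict order from gene to gene. The sequence is the CATG site nearest the 3′ end of a GENCODE transcript (in capitals) with the 23 bases after it, 5′ to 3′, and was read from the transcripts, not from the libraries.
Myh2: CATGcgcctgtgtgattctattccatc
Myh1: CATGagagaagagtgaaagaactcact
Myh4: CATGgagcagaccgtgaaggacctgca
Mylpf: CATGgtgatgctaaggaccaggaatag
Tnnc2: CATGtgacagaagaggagatcgaatcc
Tnni2: CATGgagggccggaagaaaatgttcga
Tnnt3: CATGggtgccaactacagcagctacct
Atp2a1: CATGcatcttcagccaaagctgaggca
Pvalb: CATGtgggccacctcgttcaatctctg
Actn3: CATGcttctgaataaagatcaggctgt
The tags of Myh2, Atp2a1, Pvalb and Actn3 lay in the 3′ UTR, and those of the other 6 genes lay in coding sequence. No other gene had any of these 10 as its own last tag. The Myh4 tag also occurred inside the Myh2 transcript, upstream of the last site of Myh2, so that a tag from an incompletely cut Myh2 transcript would carry the same letters. Tnnt3 had 2 different last tags among 11 transcripts, and the one shown was shared by 8 of them.

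The 3 myosin heavy chain genes are neighbours on the plus strand of chromosome 11 (GRCm38), with Myh2 at chr11:67171027-67197517, Myh1 at chr11:67200102-67224577 and Myh4 at chr11:67237812-67260447. Mylpf (chr7:127208848-127214288), Tnni2 (chr7:142441816-142444410), Tnnt3 (chr7:142498771-142516213) and Atp2a1 (chr7:126445858-126463103) lie on chromosome 7. Tnnc2 lies at chr2:164777161-164779734, Pvalb at chr15:78191112-78206400 and Actn3 at chr19:4861216-4877909. Since the correlation between Myh2 and Myh4 was 0.98 in BAT and -0.63 in gastrocnemius without MR3101, the 250 bases before each start are shown (RefSeq, GRCm38.p6, plus strand), with the longest run of bases that all 3 share in capitals.
Myh2, chr11:67170777-67171026: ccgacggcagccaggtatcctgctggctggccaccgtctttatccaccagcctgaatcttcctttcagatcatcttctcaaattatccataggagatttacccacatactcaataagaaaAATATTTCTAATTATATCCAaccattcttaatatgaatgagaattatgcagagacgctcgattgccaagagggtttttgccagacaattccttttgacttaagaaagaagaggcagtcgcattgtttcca
Myh1, chr11:67199852-67200101: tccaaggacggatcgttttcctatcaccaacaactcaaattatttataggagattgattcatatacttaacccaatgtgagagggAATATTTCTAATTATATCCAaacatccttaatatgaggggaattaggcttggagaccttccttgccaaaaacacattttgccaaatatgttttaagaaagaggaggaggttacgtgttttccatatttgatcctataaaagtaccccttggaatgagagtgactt
Myh4, chr11:67237562-67237811: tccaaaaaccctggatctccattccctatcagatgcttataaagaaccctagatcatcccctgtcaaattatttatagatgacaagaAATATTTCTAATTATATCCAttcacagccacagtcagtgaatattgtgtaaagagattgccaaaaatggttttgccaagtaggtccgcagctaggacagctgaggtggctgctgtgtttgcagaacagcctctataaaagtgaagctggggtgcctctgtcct
The shared run of 20 bases (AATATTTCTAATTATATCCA, searched on both strands) began 130 bases before the start of Myh2, 165 before Myh1 and 163 before Myh4. Of 32851 RefSeq promoters cut to the same length, 3 held it (0.00913%), and these belonged to the 3 myosins. The letters TATAAAAG began 32 bases before the start of Myh1 and 31 bases before that of Myh4, were not in the Myh2 window, and were found in 1.51% of promoters. The letters CANNTG, an E-box, occurred 2 times in the Myh4 window, not in the other 2 windows, and in 66.2% of promoters. These matches describe letters only.

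Depth in gastrocnemius ran from 7756320 to 12829112 tags per library, and in BAT from 5252688 to 13117537. All 10 genes had tags in each of these libraries. Gastrocnemius library MR3101 stood apart: its median Spearman correlation to the other 10 libraries was 0.582, against 0.928 to 0.955 among the others, and it held tags of 11144 genes, against 14676 to 16058. Results on gastrocnemius are therefore given with and without it. The IWAT libraries MR3116, CON3106 and CON3115 also stood apart, with median correlations of 0.647, 0.628 and 0.719, against 0.857 to 0.914 in the other IWAT libraries. Muscle and fat genes followed the tissue labels by group median, but not in every library. Ckm, the muscle creatine kinase, ran from 5121 to 84421 CPM in MR gastrocnemius and from 52432 to 104606 CPM in control gastrocnemius. Its BAT value in CON3112, 11423 CPM, lay above that of gastrocnemius library MR3101. Ucp1, the uncoupling protein of brown fat, ran from 3204 to 6006 CPM in MR BAT and 1849 to 3546 CPM in control BAT. In MR IWAT it reached 2236 CPM, above the lowest control BAT value. In bulk tissue, fewer fibres of a type and less RNA per fibre cannot be told apart.

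In gastrocnemius the fast fibre genes were abundant on both diets, and none of them passed the test between diets. Together the 10 genes took 1.38% of tags in MR3101, 8.18% to 9.71% in the other 4 MR libraries and 7.84% to 9.34% in the 6 control libraries. The quasi-likelihood test of edgeR called 0 of the 10, with 0 of 11225 genes called in the whole table (0%). At an unadjusted p under 0.05 it again found 0 of the 10, against 709 genes of the table (6.32%). The values of the diets overlapped for all 10 genes, and 9 of the 10 fold changes were negative with MR3101 in the fit, against 6 of 10 without it. The median log2 fold change of the 10 genes was -0.36, against -0.04 over all genes tested, and -0.05 without MR3101, against 0.02 over all genes.

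**Figure D1:**
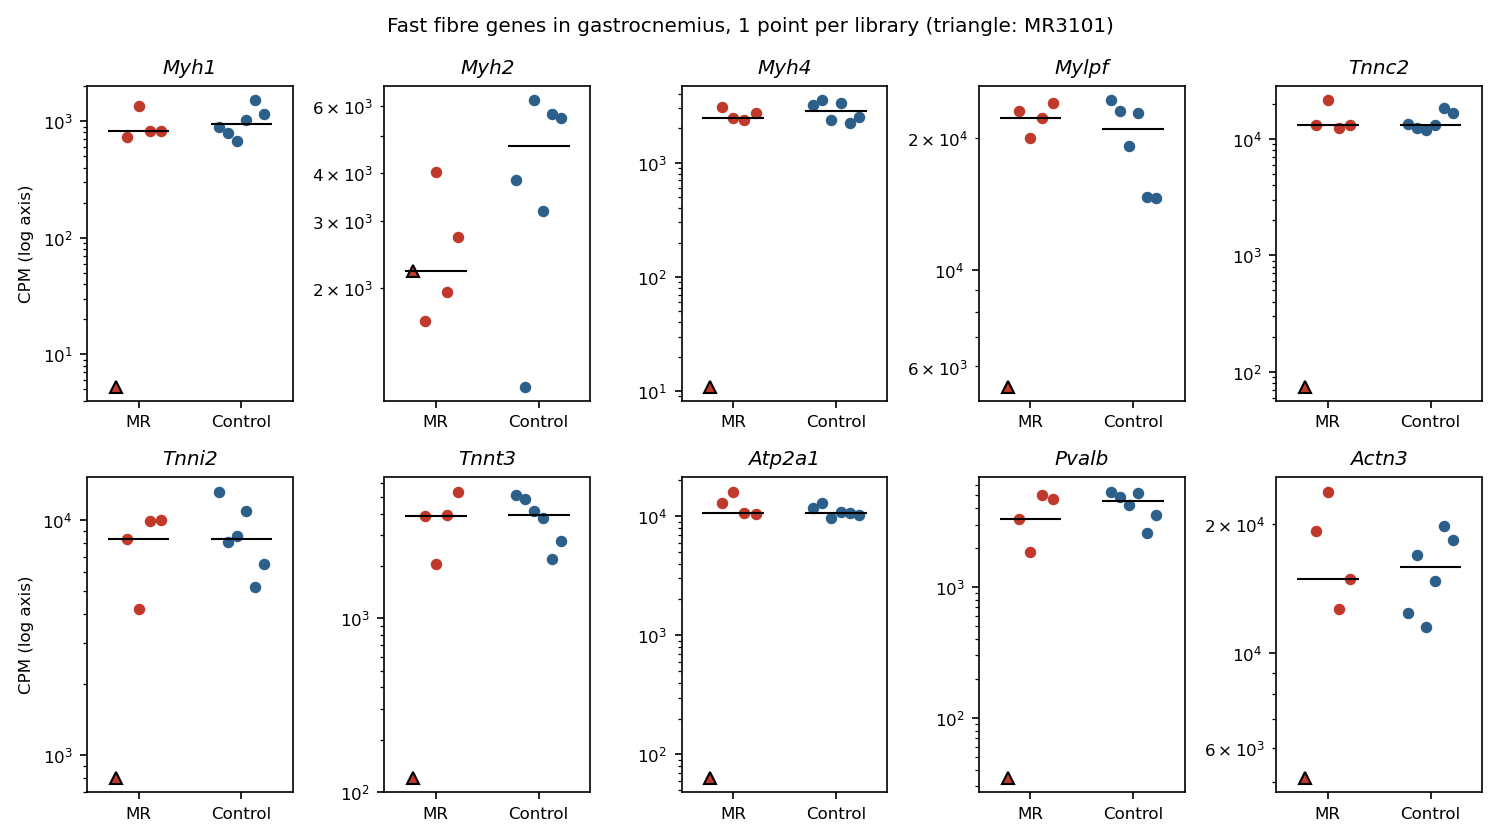
CPM (log axis) of each fast fibre gene in gastrocnemius, with 1 point per library, 5 MR and 6 control, and black lines at the medians. The MR3101 library (triangle) lies below all others for 9 of the 10 genes, and the remaining MR libraries lie within or near the range of the controls.

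Among the myosin heavy chains, Myh2, the type 2A motor, had 2218, 1643, 4034, 1955 and 2731 CPM in MR3101, MR3102, MR3104, MR3109 and MR3116, against a lowest value of 1109, a median of 4700 and a highest value of 6190 CPM in controls. All 5 MR values were under the control mean of 4263 ± 1936 CPM (SD, n = 6), but the lowest of all 11 values belonged to a control, CON3106. Its log2 fold change was -0.59 ± 0.48 (SE), with an adjusted p of 0.942 (edgeR quasi-likelihood test), and -0.70 ± 0.45 without MR3101, with an adjusted p of 1.0.

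Myh1, the type 2X motor, had 5.29, 726, 1347, 818 and 828 CPM in MR libraries in the same order, against 673, 954 and 1511 CPM as the lowest, median and highest control. Apart from MR3101 the MR values fell inside the control range. The log2 fold change was -0.46 ± 0.74 (adjusted p 0.971, edgeR) and -0.13 ± 0.32 without MR3101.

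Myh4, the type 2B motor, had 10.9, 3093, 2474, 2371 and 2728 CPM in MR libraries, against 2243, 2860 and 3523 CPM as the lowest, median and highest control. Again the MR values other than MR3101 lay inside the control range. Its log2 fold change was -0.42 ± 0.73 (adjusted p 0.971, edgeR), and without MR3101 it was -0.10 ± 0.22, the smallest standard error of the 3 myosins.

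Mylpf, the fast regulatory light chain, had 5396, 23080, 20025, 22217 and 24067 CPM in MR libraries, against 14598, 20983 and 24392 CPM as the lowest, median and highest control. Here the 2 lowest values after MR3101 were controls, CON3115 and CON3114. The log2 fold change was 0.00 ± 0.38 (adjusted p 1.0, edgeR) and 0.18 ± 0.22 without MR3101.

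The 3 troponin subunits did not vary as a unit. Tnnc2, the calcium-binding subunit, had 74.6, 13229, 21444, 12329 and 13067 CPM in MR libraries, against 11925, 13237 and 18492 CPM as the lowest, median and highest control. MR3104 was the highest of all, and the other MR values except MR3101 lay inside the control range. Tnni2, the inhibitory subunit, had 799, 8281, 4181, 9918 and 9983 CPM in MR libraries, and its controls ran from 5211 to 13193 CPM. Tnnt3, the tropomyosin-binding subunit, had 120, 3849, 2053, 3913 and 5336 CPM in MR libraries, against 2187, 3947 and 5087 CPM as the lowest, median and highest control. MR3104 was thus the highest library for Tnnc2 and, MR3101 aside, the lowest for Tnni2 and Tnnt3. The log2 fold changes were -0.26 ± 0.76 for Tnnc2, -0.40 ± 0.47 for Tnni2 and -0.32 ± 0.57 for Tnnt3 (adjusted p 0.971 each, edgeR), and 0.07 ± 0.30, -0.13 ± 0.27 and -0.01 ± 0.27 without MR3101.

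Of the genes that clear calcium after a contraction, Atp2a1 had 63.2, 12820, 16024, 10580 and 10448 CPM in MR libraries, against 9620, 10715 and 13031 CPM as the lowest, median and highest control. Relative to their mean, its control values were the closest of the 10 genes, at 11011 ± 1204 CPM (SD, n = 6). The log2 fold change was -0.13 ± 0.73 (adjusted p 0.984, edgeR) and 0.19 ± 0.25 without MR3101. Pvalb had 34.7, 3282, 1860, 5085 and 4734 CPM in MR libraries, against 2575, 4518 and 5335 CPM as the lowest, median and highest control. MR3104 again lay below all controls. The log2 fold change of Pvalb was -0.56 ± 0.68 (adjusted p 0.971, edgeR) and -0.23 ± 0.26 without MR3101.

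Actn3, the Z-disc protein of fast fibres, had 5111, 19217, 23702, 12648 and 14852 CPM in MR libraries, against 11483, 15814 and 19774 CPM as the lowest, median and highest control. MR3104 was the highest library and MR3101 the lowest. The log2 fold change was 0.01 ± 0.42 (adjusted p 0.999, edgeR) and 0.17 ± 0.31 without MR3101.

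**Figure D2:**
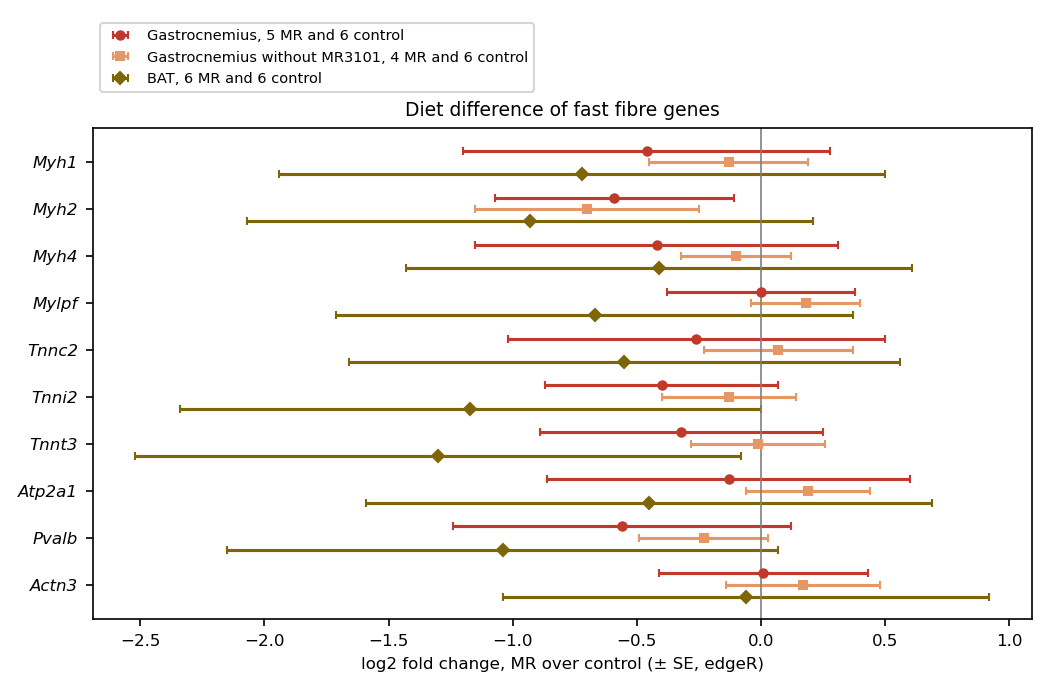
Log2 fold change of each fast fibre gene, MR over control, with its SE (edgeR), in gastrocnemius with all 11 libraries, in gastrocnemius without MR3101 and in BAT. Leaving out MR3101 narrows the error of every gene, for example to 0.22 for Myh4, against 0.73 with all 11 libraries, and the BAT errors are the widest, at 0.98 to 1.22.

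MR3101 had the lowest gastrocnemius value of 9 of the 10 genes, all but Myh2, and its deficit was uneven. Relative to the median of the other 10 libraries it held 63.1% of Myh2, 32.2% of Actn3, 24.0% of Mylpf and 9.47% of Tnni2. It held 3.10% of Tnnt3, 0.777% of Pvalb, 0.614% of Myh1, 0.590% of Atp2a1, 0.566% of Tnnc2 and 0.418% of Myh4. The first 4 genes are those whose tag starts nearest the transcript end, at 72, 38, 130 and 98 bases, and the other 6 have tags that start 207 to 560 bases from it. Over 3887 genes with a mean of more than 200 tags and a matched tag, the ratio of this library to the median of the other 10 had a Spearman correlation of -0.50 with the distance of the tag from the end, and of -0.50 with the GC content of the tag. In the other 10 libraries these correlations lay between -0.18 and 0.25. The genes share the library, so these are descriptions of 1 library. What part the tag's position or composition has in its low values was not tested. As a share of the tags of the 3 myosins, MR3101 held 99.3% Myh2 (Wilson 95% interval 99.1% to 99.4%, counting error only), 0.237% Myh1 (0.176% to 0.317%) and 0.489% Myh4 (0.399% to 0.600%).

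**Figure D3:**
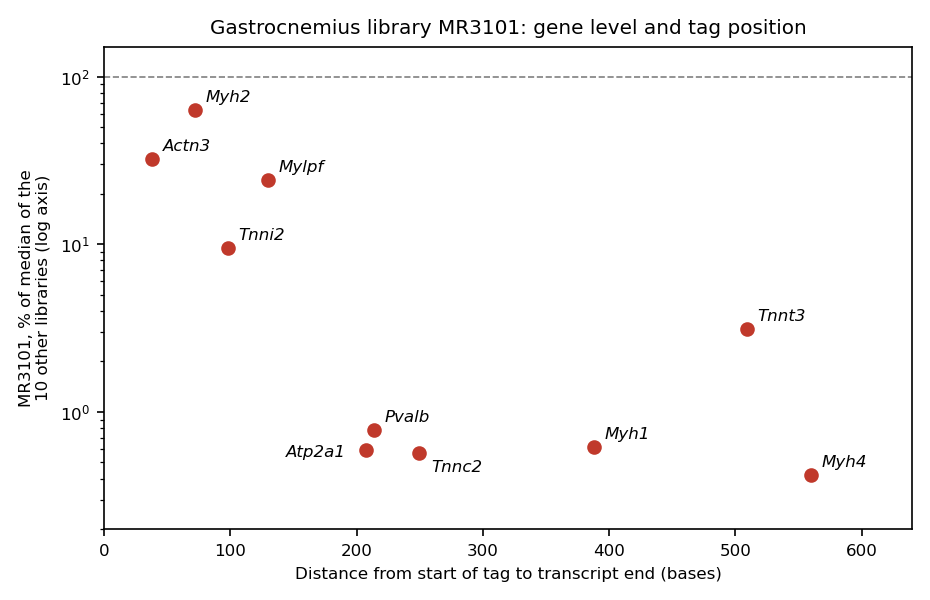
Level of each fast fibre gene in gastrocnemius library MR3101, as a percentage of the median of the other 10 libraries (log axis), against the distance in bases from the start of its tag to the transcript end. The 4 genes with tags within 130 bases stand at 9.47% to 63.1%, and the 6 genes with tags from 207 bases on stand at 0.418% to 3.10%; the dashed line marks 100%.

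In the other 10 gastrocnemius libraries the fast fibre genes varied in 2 directions. Correlations of log2 CPM, without subtracting diet means, ran from -0.90 (Tnnc2 with Tnnt3) to 0.93 (Tnni2 with Pvalb) over the 45 pairs. Of the pairs, 25 were negative. Tnni2, Tnnt3 and Pvalb moved together, with correlations of 0.88 to 0.93, and against Tnnc2, with -0.86 to -0.90. The libraries behind this pattern were MR3104, CON3114 and CON3115. Relative to the control median, Pvalb differed by -1.28, -0.81 and -0.35 on the log2 scale in these 3, and Tnnc2 differed by 0.70, 0.48 and 0.33. Both diets thus held libraries of either kind. The 3 genes above the control median in all 3 of these libraries, Tnnc2, Actn3 and Myh1, have tags with 47.8%, 39.1% and 39.1% GC. The 5 genes below it in all 3, Tnni2, Tnnt3, Pvalb, Myh4 and Mylpf, have tags with 52.2%, 56.5%, 56.5%, 60.9% and 47.8% GC. Over the 3887 genes the correlation of these libraries' ratios with tag GC was -0.05 to -0.01. The part of tag composition in this pattern was not tested. With MR3101 among the libraries the median correlation of the 45 pairs was 0.90, against -0.30 without it.

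The balance of the 3 myosins differed widely between gastrocnemius libraries of either diet. As a share of the tags of all 3, Myh2 took 30.1% to 51.4% in the 4 MR libraries other than MR3101, with a median of 40.7%, and 20.4% to 67.2% in controls, with a median of 54.3%. Myh4 took 31.5% to 56.6% in these 4 MR libraries and 23.7% to 64.9% in controls. Myh1 took the least, with 13.2% to 17.1% in these MR libraries and 7.30% to 16.0% in controls. Both extremes were controls: CON3107 had the highest share of Myh2 and CON3106 the lowest. Correlations of level over the 10 libraries were -0.63 for Myh2 with Myh4, -0.37 for Myh1 with Myh4 and 0.49 for Myh1 with Myh2.

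Myh2 was also read beside the slow fibre genes. The summed level of 10 slow fibre genes (Myh7, Myl2, Myl3, Tnnc1, Tnni1, Tnnt1, Atp2a2, Casq2, Myoz2 and Tpm3) was 17082 CPM in CON3107, where Myh2 was highest, and 2264 CPM in CON3106, where it was lowest. It was 14380 CPM in CON3115 and 4167 CPM in CON3114, although Myh2 stood at 5563 and 5694 CPM in these libraries. Over the diets this sum ran from 1763 to 4226 CPM in MR libraries, with a median of 3281. In controls it ran from 2264 to 17082 CPM, with a median of 6927. The highest MR sum was that of MR3101, where Atp2a2 alone had 3776 CPM and Myh7 had 0. Without MR3101 the highest MR sum was 3463 CPM, in MR3109. All 10 slow fibre genes had negative fold changes, with a median log2 of -1.57 (-1.56 without MR3101). Of the 10, 6 had an unadjusted p under 0.05 (edgeR), against 709 of 11225 genes in all (6.32%), and 0 passed the adjusted threshold. Without MR3101 the count was again 6 of the 10, against 367 of 11395 genes in all. Myl3, the slow essential light chain, differed by -2.01 ± 0.68 and Myh7, the slow myosin heavy chain, by -2.29 ± 0.81 (adjusted p 0.764 each, edgeR), and without MR3101 these were -1.72 ± 0.54 and -1.98 ± 0.56. The part of the slow fibre content of a sample in the level of Myh2 was not tested.

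Other genes of fast fibres also gave 0 calls. Of 13 further genes typical of fast fibres (among them Myl1, Casq1, Pygm and Ampd1), 4 had positive and 9 negative fold changes, with a median log2 of -0.14, and without MR3101 these were 9 and 4, with a median of 0.06. The lowest p belonged to Phka1, a subunit of the kinase that activates glycogen phosphorylase, at 1.20 ± 0.62 (adjusted p 0.766, edgeR), and this value rested on MR3101: without it Phka1 differed by 0.04 ± 0.33. Myl1, the fast essential light chain, differed by 0.30 ± 0.49 and Casq1, the calcium store protein of the fast sarcoplasmic reticulum, by -0.34 ± 0.81, against 0.00 ± 0.35 and -0.01 ± 0.28 without MR3101. Of 16 sarcomere genes shared by slow and fast fibres, 4 were positive and 12 negative, with a median of -0.21 (6 and 10, with -0.14, without MR3101), and Mb, the oxygen store myoglobin, differed by -0.92 ± 0.70, and by -0.60 ± 0.32 without MR3101. Of 12 genes of calcium release, 2 were positive and 10 negative (4 and 8 without MR3101). Sln, an inhibitor of the calcium pump that Atp2a1 encodes, had the lowest p of these lists, at -2.96 ± 0.68 (unadjusted p 0.000715, adjusted p 0.764, edgeR), and -2.87 ± 0.72 without MR3101. Its values ran from 2.40 to 10.5 CPM in MR libraries and from 4.83 to 152 CPM in controls, and the diets overlapped. Of 18 regulators of fibre type, 17 were tested, 6 positive and 11 negative with or without MR3101. Maf differed by 1.76 ± 0.69 with MR3101 and by 0.11 ± 0.23 without it, and Ppargc1a by -0.38 ± 0.27 and -0.36 ± 0.21. Of 7 developmental or denervation genes, 4 were tested and 0 called.

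Markers of other cell types were also summed in the muscle samples. Summed levels of 5 white adipocyte markers ran from 25.2 to 150 CPM in MR gastrocnemius and from 27.4 to 268 CPM in control gastrocnemius, those of 6 endothelial markers from 189 to 287 and from 157 to 304 CPM, and those of 6 fibroblast markers from 1070 to 1752 and from 1207 to 2703 CPM. The sums of 5 hepatocyte markers ran from 15.0 to 82.4 CPM in MR and from 11.4 to 55.0 CPM in control libraries, and those of 5 Schwann cell markers from 13.0 to 185 and from 73.4 to 174 CPM. Sums of 5 macrophage, 5 blood and 4 satellite cell markers were at most 24.6 CPM in every gastrocnemius library, and Hbb-b1 and Hbb-b2 were at 0 in all. The sum of 8 brown adipocyte markers, of which Cox7a1 and Cox8b are also made in muscle, ran from 113 to 1084 CPM in MR and from 626 to 1179 CPM in control libraries, while Ucp1 ran from 0.0847 to 9.48 and from 1.89 to 3.61 CPM. MR3101 had the highest MR sums of fibroblast and hepatocyte markers and the lowest MR sums of Schwann cell and brown adipocyte markers. Without it the highest MR hepatocyte sum was 51.7 CPM (MR3116) and the lowest MR brown adipocyte sum was 564 CPM (MR3104). The part of these other cell types in the levels of the fast fibre genes was not tested.

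The genes most like the fast fibre set were sought among 2141 genes with a mean of at least 50 CPM in gastrocnemius, by the correlation with the mean log2 CPM of the 10 genes after subtracting diet means. Over all 11 libraries the closest were Ube3b, at 0.999, and Entpd4, Dnajc27, Dlst and Uqcrfs1, each at 0.998. Those correlations are led by MR3101, where the set was lowest. Over the 10 libraries without it the closest were Abra at 0.856, Mllt3 at 0.842, Dennd4b at 0.800, Ptp4a3 at 0.784 and Ube3b at 0.776. Of the 5 leading genes, 1 was shared by the 2 rankings, Ube3b.

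In BAT the fast fibre genes were present in every library at levels that differed by a factor of 104 (Actn3) to 789 (Myh1) between the highest and the lowest library. Their summed level was 2047, 2473, 212, 1674, 5301 and 2115 CPM in MR3101, MR3102, MR3104, MR3109, MR3113 and MR3116, with a median of 2081, against 107, 3471, 122, 13249, 6746 and 49.6 CPM in CON3103, CON3106, CON3107, CON3112, CON3114 and CON3115, with a median of 1797. The controls thus held the 2 highest and the 3 lowest sums, and the MR libraries lay between these. CON3112 was the highest library for 10 of the 10 genes, and CON3115 the lowest for 9, all but Tnnt3, which was lowest in CON3107.

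**Figure D4:**
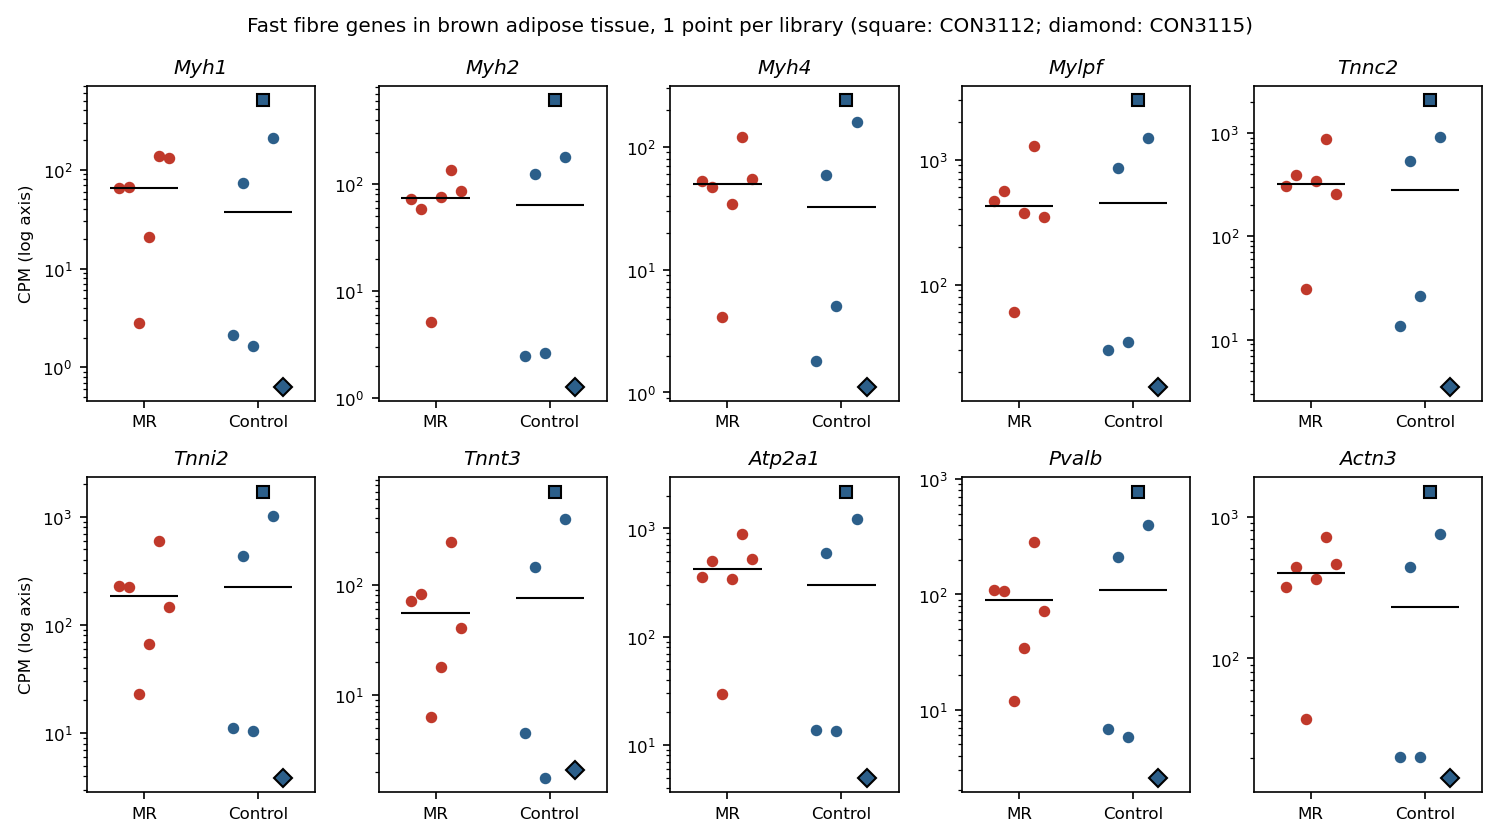
CPM (log axis) of each fast fibre gene in BAT, with 1 point per library, 6 MR and 6 control, and black lines at the medians. The same libraries are high or low in every panel: CON3112 (square) is highest for all 10 genes and CON3115 (diamond) lowest for 9, so that the controls surround the MR libraries.

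The edgeR test called 0 of the 10 genes in BAT between diets, where 120 of 10791 genes were called in all (1.11%), 62 higher (0.575%) and 58 lower (0.537%) in MR. At an unadjusted p under 0.05 it found 0 of the 10 genes and 1466 genes overall (13.6%). The values of the diets overlapped for all 10 genes. All 10 fold changes were negative, from -0.06 ± 0.98 (Actn3) to -1.30 ± 1.22 (Tnnt3) on the log2 scale, with adjusted p-values of 0.694 to 0.986, and their median was -0.69, against 0.00 over all genes. This direction was not stable. Limma voom gave a median of 1.18 and positive values for all 10, and without CON3112 the edgeR median was 0.42.

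By role, the light chain gene Mylpf ran in BAT from 60.4 to 1287 CPM in MR with a median of 422, and from 15.3 to 2975 CPM in controls with a median of 449. Of the troponins, Tnnc2 ran from 31.2 to 875 CPM in MR and from 3.51 to 2070 CPM in controls, Tnni2 from 22.8 to 601 and from 3.83 to 1704 CPM, and Tnnt3 from 6.33 to 247 and from 1.76 to 697 CPM. In every case the controls spanned the wider range. Atp2a1 ran from 29.7 to 890 CPM in MR and from 4.95 to 2181 CPM in controls. Pvalb ran from 11.9 to 287 CPM in MR and from 2.55 to 777 CPM in controls. Actn3 ran from 37.5 to 723 CPM in MR and from 14.4 to 1494 CPM in controls. Of the motors, Myh2 ran from 5.15 to 134 CPM in MR and from 1.28 to 607 CPM in controls, Myh1 from 2.80 to 137 and from 0.638 to 503 CPM, and Myh4 from 4.12 to 120 and from 1.12 to 239 CPM.

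Within BAT the 10 genes moved as one. Correlations of log2 CPM, without subtracting diet means, ran from 0.94 to 1.00 over the 45 pairs, with a median of 0.98. They were 0.98 for each pair of the 3 myosins. The 10 genes share these 12 libraries. The muscle genes outside the set were also highest in CON3112, but did not follow the fast fibre genes in every library. Ckm ran from 231 to 4395 CPM in MR and from 50.8 to 11423 CPM in controls. It was lowest in CON3107, and had 899 CPM in CON3106 against 2225 CPM in MR3101. Acta1, the actin of skeletal muscle, ran from 3.24 to 140 CPM in MR and from 0.638 to 374 CPM in controls. Mb ran from 39.5 to 500 and from 4.79 to 1618 CPM, and Myh7 from 0.147 to 12.5 and from 0 to 28.7 CPM. None of the 4 was called, with log2 fold changes of -0.38 ± 1.11 for Ckm, -0.82 ± 1.14 for Acta1, -0.64 ± 1.10 for Mb and -0.58 ± 1.15 for Myh7. A value of 0 allows up to 0.229 to 0.571 CPM at the depths of the BAT libraries (3 tags, counting error only). The summed level of 8 brown adipocyte markers was 5914 to 10503 CPM in MR BAT and 4822 to 7856 CPM in control BAT. CON3112, with the most fast fibre tags, had the lowest brown marker sum of the 12. CON3115, with the fewest, had the highest of the controls. The other libraries did not all follow this order. CON3114, with 6746 CPM of the fast fibre genes, had 6949 CPM of brown markers, and CON3103, with 107 CPM, had 5942 CPM. In MR BAT, MR3104 had the fewest fast fibre tags and the highest brown marker sum. MR3113 had the most and 8652 CPM of brown markers, against 5914 CPM in MR3109. The summed level of 5 hepatocyte markers was 19.7 to 105 CPM in MR BAT and 22.2 to 106 CPM in control BAT, except for 3570 CPM in CON3106, one of the libraries with many fast fibre tags, where Alb, serum albumin, stood at 3027 CPM. Whether muscle tissue taken with the fat gave these tags was not tested.

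Set against the gastrocnemius of the same animal, BAT held a median over the 10 genes of 0.0569% of the muscle level in CON3115 and of 15.7% in CON3112, among the 10 animals with both libraries (without MR3101). In the MR animals this median was 2.84% in MR3102, 0.197% in MR3104, 2.11% in MR3109 and 1.98% in MR3116. In the other controls it was 0.110% in CON3103, 4.31% in CON3106, 0.158% in CON3107 and 10.8% in CON3114. The 10 genes were not at 1 common percentage. Myh1 was the highest in 5 of the 10 animals, reaching 49.6% of its muscle level in CON3112 and 15.9% in MR3116, and Myh4 was the lowest in 4, with 7.19% in CON3112.

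The myosins were accordingly mixed in other shares in BAT than in gastrocnemius. Over the 12 BAT libraries the median shares of the tags of the 3 myosins were 38.2% for Myh2, 33.8% for Myh1 and 28.0% for Myh4, against 45.9%, 13.4% and 42.0% in the 10 gastrocnemius libraries other than MR3101. Myh1 took 15.9% to 48.2% in BAT and 7.30% to 17.1% in these gastrocnemius libraries. The ranges of Myh1 overlapped only at the BAT library MR3109, with 15.9% (Wilson 95% interval 13.7% to 18.3%) of 990 tags. The highest share of Myh1 was in the BAT library MR3116, at 48.2% (46.1% to 50.3%) of 2178 tags, and the BAT library CON3115 held only 19 tags of the 3 myosins. The diets did not separate: Myh1 had a median share of 34.6% in MR BAT and of 31.0% in control BAT.

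**Figure D5:**
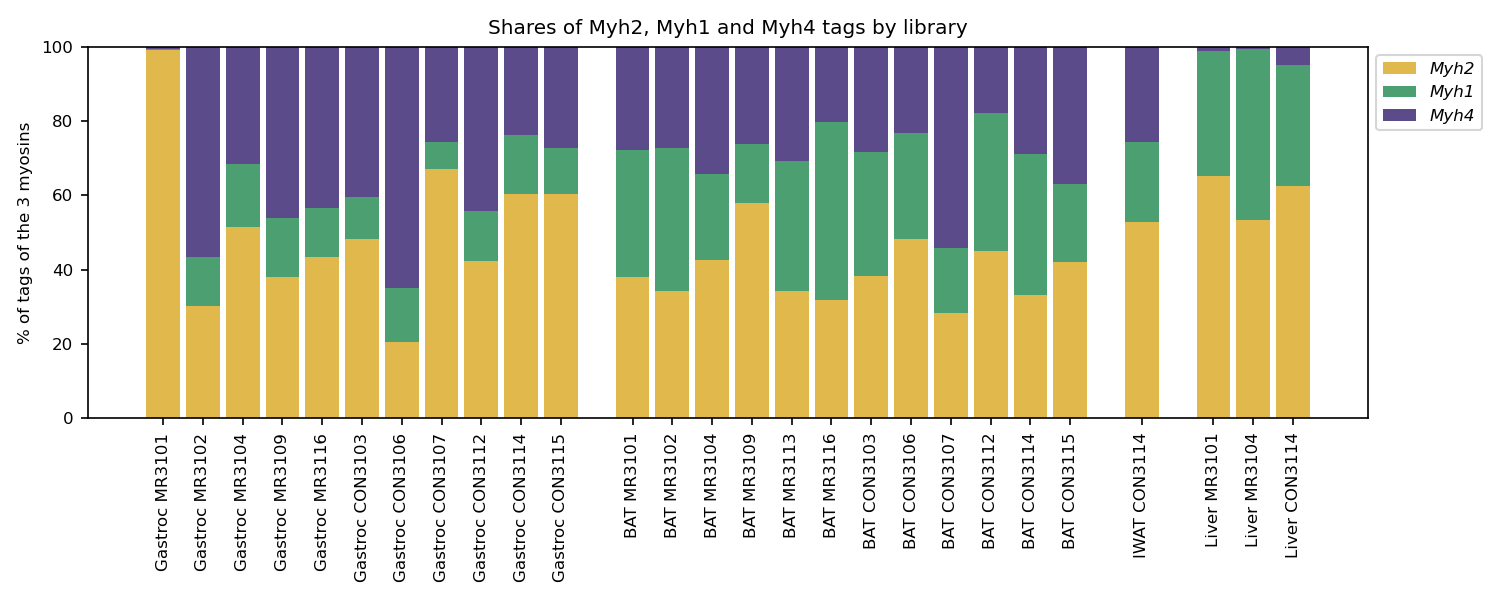
Share of Myh2, Myh1 and Myh4 in the tags of the 3 myosins, in percent, for each gastrocnemius and BAT library and for the IWAT and liver libraries with the most fast fibre tags, MR left of control within each tissue. MR3101 stands out in gastrocnemius with 99.3% Myh2, Myh1 takes a median of 33.8% in BAT against 13.4% in gastrocnemius, and Myh4 takes 0.511% to 4.85% in the 3 liver libraries.

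The diet effect was also compared between the tissues. The difference (gastrocnemius minus BAT) passed the test for 0 of the 10 genes, and for 0 of 11933 genes in the table (0%, edgeR). At an unadjusted p under 0.05 these were 0 of the 10 and 1256 genes (10.5%). The differences ran from 0.01 ± 1.35 (Myh4) to 0.99 ± 1.45 (Tnnt3) on the log2 scale, with a median of 0.34 and adjusted p-values from 0.881 to 1.0. With the animal as a block all 10 differences were negative, with a median of -1.64, and 0 were called. Without the libraries of CON3112 the median was -0.71, and 0 were called.

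Tags of the fast fibre genes also occurred in every IWAT and liver library, at high levels in a few of them. The order of the levels was gastrocnemius, BAT, then IWAT and liver. In IWAT the summed level ran from 10.6 to 340 CPM in MR, with a median of 21.3, and from 9.47 to 1691 CPM in controls, with a median of 15.5. In liver it ran from 16.4 to 886 CPM in MR, with a median of 30.5, and from 17.2 to 374 CPM in controls, with a median of 35.1. IWAT and liver overlapped in their ranges, and so did BAT with both, whereas gastrocnemius, with 13832 to 97145 CPM in MR and 78356 to 93382 CPM in controls, lay above every library of the other tissues. The highest IWAT libraries were MR3102 and CON3114, and the highest liver libraries were MR3104 and CON3114. Of the 3 IWAT libraries that stood apart, CON3106 and MR3116 had the lowest sums, at 9.47 and 10.6 CPM. The third, CON3115, had 15.5 CPM, near the control median.

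The liver libraries with the most fast fibre tags held few tags of Myh4. In liver library MR3104, Mylpf had 182 CPM, Tnnc2 154, Myh2 147, Myh1 127 and Tnni2 117 CPM, but Myh4 had 1.41, Pvalb 6.23 and Actn3 11.8 CPM. Set against the gastrocnemius of the same animal, Actn3 was the lowest at 0.0496%, with Myh4 at 0.0569% and Pvalb at 0.335%. In liver library CON3114 Actn3 was also the lowest, at 0.114%, with Pvalb at 0.190% and Myh4 at 0.205%. Of the 2741 myosin tags of liver library MR3104, 53.3% were Myh2 (Wilson 95% interval 51.5% to 55.2%), 46.2% Myh1 (44.3% to 48.0%) and 0.511% Myh4 (0.304% to 0.856%). In liver library CON3114 the share of Myh4 was 4.85% (3.65% to 6.40%) of 949 tags, and in liver library MR3101 it was 1.16% (0.395% to 3.35%) of 259 tags. The other 9 liver libraries held only 6 to 54 myosin tags each, with Myh4 shares of 11.1% to 54.5%. The lowest Myh4 share in gastrocnemius was 23.7%, in CON3114, apart from MR3101. In the IWAT library CON3114 it was 25.6% (22.5% to 29.0%) of 695 tags. The source of the tags in liver and IWAT was not tested.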

How the data were processed

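RNA from 4 tissues of 12 mice was made into 47 SOLiD SAGE libraries from 7 to 12 ng of RNA, per the labels' protocols. The deposited count tables held whole tag counts per RefSeq gene symbol, from uniquely mapped fragments per the labels. No source used here names the aligner or counter. DESeq and the build mm10 (GRCm38.p1) are named in the submitters' processing notes. The authors also deposited a normalized signal, which on the values equalled the count divided by 1 size factor per library. It served as an alternative, with a pseudocount of 1.

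Raw counts were tested per tissue with edgeR 4.0.16 (R 4.3.3): filterByExpr (minimum count 10), TMM factors, quasi-likelihood F test and Benjamini-Hochberg adjustment over all genes, threshold 0.05. SE is the absolute log2 fold change over the square root of F. The difference between tissues was the interaction of tissue and diet. Each animal was a replicate. The code was tested on simulated data. Alternatives were DESeq2 1.42.0, limma 3.58.1 (voom, and log2 signal), RLE factors, no filter on low counts, scaling without contractile genes, each animal left out, the animal as a replicate block and 1 fit over 4 tissues. The labels' numbers pair gastrocnemius and BAT by animal. Over 10165 genes the correlation of deviations between libraries of the same animal averaged -0.0122 over 11 pairs (-0.205 to 0.331), 3 were over 0.1, and 2 libraries correlated best with their own animal.

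The 10 genes and all lists were chosen with earlier results of these data known. All 10 were named, with up to 4 genes of the smallest p in gastrocnemius from each other list, Myh7, Acta1, Ckm and Mb in BAT, and the 5 genes most like the set, leaving out predicted genes. Tags came from GENCODE vM1 transcripts (NCBIM37) and gene coordinates and promoters from RefSeq on GRCm38. Before log2, 0.5 CPM was added for the relation to tag position and GC and for the search for genes like the set. Nothing was added for the correlations among the 10 genes or for their ratios to the control median. In gastrocnemius 25 symbols had the form of dates. Depth limits the precision of a gene with few tags, and intervals and the limit for a count of 0 cover counting error only.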

Additional observations from a re-analysis of the deposited data

Results flagged for a closer look

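A library counted as far from its group when its gap to the nearest other library, relative to the range of the group, was above Dixon's 95% critical value. This held for 41 of 80 combinations of gene and group. Chance gives about 1 in 20 only for normally distributed values, and CPM, used here without a log, need not be so distributed. The genes of one library are also not independent. In MR gastrocnemius, MR3101 was far below the others for Myh4 (10.9 CPM) and Mylpf (5396 CPM). The rule did not flag it for Tnnc2 (74.6 CPM, next lowest 12329) or Atp2a1 (63.2 CPM, next lowest 10448). In BAT, MR3113 was far above the other MR libraries for Tnni2 (601 CPM), Tnnt3 (247 CPM) and Pvalb (287 CPM), and CON3112 was far above the other controls for Myh2 (607 CPM).

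In MR IWAT, MR3102 was far above the others for 8 genes, with 4.07 CPM of Myh1, 96.4 of Mylpf, 49.5 of Tnnc2, 57.6 of Tnni2, 9.32 of Tnnt3, 32.0 of Atp2a1, 23.6 of Pvalb and 58.6 CPM of Actn3. In control IWAT, CON3114 was far above for all 10, with 23.5 CPM of Myh1, 57.5 of Myh2, 27.9 of Myh4, 414 of Mylpf, 259.8 of Tnnc2, 252 of Tnni2, 44.8 of Tnnt3, 187 of Atp2a1, 101 of Pvalb and 322 CPM of Actn3.

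In MR liver, MR3104 was far above the others for 8 genes, with 127 CPM of Myh1, 147 of Myh2, 182 of Mylpf, 154 of Tnnc2, 117 of Tnni2, 38.1 of Tnnt3, 101 of Atp2a1 and 6.23 CPM of Pvalb. In control liver, CON3114 was far above for 9, with 30.9 CPM of Myh1, 59.3 of Myh2, 82.0 of Mylpf, 66.1 of Tnnc2, 37.4 of Tnni2, 16.1 of Tnnt3, 50.5 of Atp2a1, 4.89 of Pvalb and 22.6 CPM of Actn3. The libraries from CON3114 were thus far above the other controls in both IWAT and liver.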

How the results depend on the processing

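Of the 10 genes, 0 passed the adjusted threshold in gastrocnemius, in BAT or in the difference between them under every alternative run, replicate block included, and the animal block changed no other call. Over all genes 120 were called in BAT, 326 with DESeq2 (176 higher, 150 lower), and 50 to 111 with 1 animal left out (50 without MR3104, 63 without CON3114, 66 without MR3101 or CON3112, 71 without CON3103, 79 without MR3102). Directions did change, and the cause was not tested. In gastrocnemius Mylpf (0.00) was 0.03 with RLE factors, 0.02 with DESeq2 and 0.00 with scaling without contractile genes, and Actn3 (0.01) was -0.01 without the filter, -0.05 with voom and -0.01 on the signal. Voom gave a median of -1.07 for the 10 genes there, where the median of all genes was -0.19.

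In BAT voom gave Myh1 1.31, Myh2 1.24, Myh4 1.13, Mylpf 1.01, Tnnc2 1.40, Tnni2 0.81, Tnnt3 0.60, Atp2a1 1.62, Pvalb 0.72, Actn3 1.40, Myh7 0.84, Acta1 0.91, Ckm 1.71 and Mb 1.46. The signal gave Myh1 1.38, Myh2 1.30, Myh4 1.18, Mylpf 1.00, Tnnc2 1.39, Tnni2 0.81, Tnnt3 0.63, Atp2a1 1.62, Pvalb 0.74, Actn3 1.40, Myh7 0.72, Acta1 0.98, Ckm 1.70 and Mb 1.46. With the animal as a replicate block the difference of the effects was -2.30 for Myh1, -1.97 for Myh2, -1.74 for Myh4, -0.91 for Mylpf, -1.93 for Tnnc2, -0.99 for Tnni2, -0.85 for Tnnt3, -2.36 for Atp2a1, -1.22 for Pvalb and -1.54 for Actn3. The difference for Myh4 was also negative with RLE factors (-0.04), without the filter (-0.01) and over 4 tissues (-0.07).

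With 1 animal left out, directions in gastrocnemius changed within -0.27 to 0.17 for Actn3, -0.46 to 0.19 for Atp2a1, -0.09 to 0.18 for Mylpf, -0.68 to 0.07 for Tnnc2, -0.13 to 1.37 for Ldb3 and 0.00 to 0.49 for Myl1. In BAT they changed within -0.31 to 0.85 for Actn3, -0.75 to 0.46 for Atp2a1, -1.09 to 0.54 for Myh1, -1.19 to 0.43 for Myh2, -0.81 to 0.41 for Myh4, -1.15 to 0.27 for Mylpf, -0.99 to 0.48 for Tnnc2, -1.25 to 0.09 for Acta1, -0.67 to 0.72 for Ckm, -0.92 to 0.10 for Mb and -1.24 to 0.49 for Myh7. The difference of the effects changed within -0.90 to 0.41 for Actn3, -0.62 to 0.64 for Atp2a1, -1.03 to 0.61 for Myh1, -1.11 to 0.73 for Myh2, -0.81 to 0.41 for Myh4, -0.26 to 1.16 for Mylpf, -0.42 to 1.10 for Pvalb, -0.80 to 0.75 for Tnnc2, -0.06 to 1.41 for Tnni2 and 0.00 to 1.79 for Tnnt3. Without CON3112 the difference was negative for 9 of the 10 genes, with Tnnt3 at 0.00 (median -0.71), and without MR3104 its median was -0.19.

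The genes most like the set were also sought without MR3101, which was chosen after seeing the data. Gastrocnemius rests on 5 MR and 6 control animals. With MR3101 in the fit the SE of Myh1, Myh4, Tnnc2 and Atp2a1 was 0.73 to 0.76, so changes of that size were not detectable there. Larger changes could go uncalled too: Sln, at -2.96 ± 0.68, had an adjusted p of 0.764 (edgeR).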
